A study of Mus musculus with 10 samples.

Results

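Retinoids are vitamin A and its derivatives, and the liver is the organ that stores them. Retinol is oxidised to retinal by retinol dehydrogenases, and retinal is oxidised to retinoic acid, which binds nuclear receptors and switches genes on or off. Hepatocytes secrete retinol bound to retinol-binding protein, and hepatic stellate cells hold retinol as esters made by lecithin retinol acyltransferase. The genes described here are 9 of the 22180 genes measured, namely the retinol dehydrogenase genes Rdh16, Rdh7, Rdh10 and Rdh11, the retinal oxidation genes Aldh1a1 and Aldh1a2, the carrier gene Rbp4, its receptor gene Stra6, and the storage gene Lrat. They were chosen by name to surround Rdh16, and Rdh16 itself was chosen by its higher signal in these same mutant arrays. Group differences of the 9 genes are therefore given as descriptions, and where the fit over all genes is counted for them, nothing is read from the count.

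The samples are 5 Jag1+/-Rfng+/- and 5 control portal tract preparations from mouse livers at 1 week of age. Jag1+/-Rfng+/- mice are heterozygous for Jag1, a Notch ligand gene, and Rfng, a gene for a Notch-modifying glycosyltransferase, and the labels do not state the kind of each allele. Controls are labelled C57Bl/6J, and the labels give no strain for the mutants. A difference in strain between the groups, if there is one, cannot be told apart from the difference in genotype. A preparation pooled 12 to 20 tracts cut from frozen sections by laser, and each was hybridised to 1 array, so that the number of arrays limits the precision. The labels do not say that each preparation came from a separate mouse, so the spread between arrays may be partly technical.

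The values are log2 signals of probe sets, which allow a gene to be compared between arrays but not with another gene. Genes that must be absent, namely Y-linked genes on arrays with high Xist and Xist on the other arrays, read between 1.82 and 2.91. That range comes from few genes and sets other genes beside them, so it is a rough guide and not a detection call. On every array 6557 of the 22180 genes read at or below its upper end. Rfng read 4.19 to 4.57 in Jag1+/-Rfng+/- and 4.61 to 5.13 in controls, and Jag1 read 3.68 to 5.06 in Jag1+/-Rfng+/- and 4.59 to 6.59 in controls. The array that stood apart was replicate 5 of Jag1+/-Rfng+/-, which correlated at 0.956 to 0.963 with the rest, while the remaining 9 correlated at 0.969 to 0.987. On that array the 3 measured erythroid markers averaged 7.66, against 4.85 to 5.58 on the other arrays, and 6 periportal hepatocyte markers averaged 8.44, against 7.22 to 8.12, and the part of this in the results was not tested. Hepatocyte markers were high in every preparation, with a list mean of 10.1 to 10.3 in Jag1+/-Rfng+/- and 10.1 to 10.4 in controls over 16 measured genes. Portal fibroblast markers averaged 4.24 to 5.45 in Jag1+/-Rfng+/- and 4.93 to 6.05 in controls, with 11 of 13 lower. Bile duct cell markers averaged 4.25 to 4.91 in Jag1+/-Rfng+/- and 4.95 to 5.78 in controls, with 8 of 9 lower, and Cftr read at the level of absent genes on all arrays. In such preparations fewer cells of a type and less RNA per cell cannot be told apart.

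Rdh16 lies in a chromosome 10 cluster of related short-chain dehydrogenase genes, next to Rdh9. Promoter windows of both are shown because these neighbours share a long run of letters, and whether that run bears on their expression was not tested. RefSeq promoter sequences of build GRCm38.p6, covering 250 bases before and 50 after the annotated start, held windows for 8 of the 9 genes, all but Rdh10. The Rdh16 window is chr10:127800903-127801202 and the Rdh9 window is chr10:127776155-127776454, both on the plus strand, and capitals mark the longest run of letters shared by the pair.
Rdh16: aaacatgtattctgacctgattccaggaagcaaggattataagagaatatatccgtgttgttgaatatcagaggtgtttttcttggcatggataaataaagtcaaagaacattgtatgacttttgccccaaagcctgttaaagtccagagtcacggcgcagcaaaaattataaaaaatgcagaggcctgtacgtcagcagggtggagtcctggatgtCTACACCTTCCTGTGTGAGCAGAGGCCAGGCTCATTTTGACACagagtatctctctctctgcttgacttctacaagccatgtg
Rdh9: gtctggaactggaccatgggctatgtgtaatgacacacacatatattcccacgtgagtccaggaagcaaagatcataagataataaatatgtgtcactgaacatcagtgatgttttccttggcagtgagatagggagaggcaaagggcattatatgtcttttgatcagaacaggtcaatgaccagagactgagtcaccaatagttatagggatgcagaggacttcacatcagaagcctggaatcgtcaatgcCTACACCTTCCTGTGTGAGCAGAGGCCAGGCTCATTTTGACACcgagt
The shared run is 43 bases long and covers positions -33 to 10 of Rdh16 and 3 to 45 of Rdh9, counted from each annotated start. Among the other pairs of genes in the cluster with a window, the longest shared run was at most 17 bases. The probe sequences were not at hand, so whether a probe set of this family also reads a relative was not tested.

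Retinoic acid acts through response elements, and textbook examples lie before Rarb, the retinoic acid receptor beta gene, and Cyp26a1, whose enzyme breaks retinoic acid down. Both stretches are shown because these genes read out retinoic acid in many tissues. They lie at chr14:16575493-16575548 on the minus strand for Rarb and chr19:37697756-37697811 on the plus strand for Cyp26a1 (GRCm38.p6), with the direct repeat in capitals.
Rarb: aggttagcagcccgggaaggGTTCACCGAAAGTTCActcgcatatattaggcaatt
Cyp26a1: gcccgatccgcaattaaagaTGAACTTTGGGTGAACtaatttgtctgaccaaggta
The motif searched was GTTCANNNNNAGTTCA on both strands, and the Cyp26a1 match lies on the reverse strand. It occurs in 11 of 32851 promoter windows, or 0.033%, and in none of the windows of the 8 matched genes. A nuclear receptor core site, AGGTCA on either strand, occurs in 16.3% of all windows and in some window of 18.1% of all genes, and in a window of 3 of the 8 genes, Rdh16, Rdh7 and Rdh11, several of which have more than 1 window. TGGGAA, the core bound by the Notch effector RBPJ, occurs in 25.6% of all windows and in some window of 28.3% of all genes, and in a window of 3 of the 8 genes, Rdh7, Rdh11 and Stra6. These are matches of letters in short windows and are not evidence of binding.

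Rdh16, which encodes a microsomal retinol dehydrogenase that also acts on steroids, was the one gene of the 9 whose groups lay apart. It read 6.99, 6.89, 6.50, 6.90 and 6.57 in Jag1+/-Rfng+/- replicates 1 to 5, against 4.92, 5.39, 4.28, 5.86 and 5.72 in control replicates 1 to 5. The lowest mutant array exceeded the highest control array, and the controls were the more scattered group. The mean was 6.77 ± 0.22 in Jag1+/-Rfng+/- and 5.23 ± 0.65 in controls (log2, SD, n = 5 each), a difference of 1.54 ± 0.26 log2 (SE), or 2.90-fold. Control replicate 3 lay lowest, and without it the difference was 1.30. It was 1.54 within the 7 arrays whose sample names share a number, and 1.59 when replicate 5 of the mutants was also left out. The other numbers in the names, of unstated meaning, mark 1 array each, too few for a value.

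The other retinol dehydrogenase genes of the group did not show such a separation. Rdh7, the microsomal relative of Rdh16 in the same cluster, read 9.03, 9.58, 9.38, 9.39 and 8.97 in Jag1+/-Rfng+/-, against 9.61, 9.22, 9.44, 9.44 and 9.30 in controls. Its groups overlapped, with a difference of -0.13 ± 0.13 log2 (SE). Rdh10, the dehydrogenase that feeds retinoic acid synthesis in mouse embryos, read 4.76, 4.34, 4.93, 4.61 and 3.26 in Jag1+/-Rfng+/-, against 5.09, 4.35, 4.41, 4.59 and 5.06 in controls. The low value belongs to replicate 5, the array that stood apart, and the difference of -0.32 became -0.04 without it. Rdh11, a microsomal enzyme that interconverts retinol and retinal, read 6.15, 5.73, 5.90, 5.37 and 5.75 in Jag1+/-Rfng+/-, against 5.45, 5.37, 5.54, 5.67 and 5.12 in controls. In Rdh11, 4 of 5 mutant arrays exceeded every control, and the difference was 0.35 ± 0.15 log2 (SE). Within the arrays sharing a name number it was 0.16, and 0.14 ± 0.19 (SE) with the portal fibroblast list as a covariate.

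**Figure D1:**
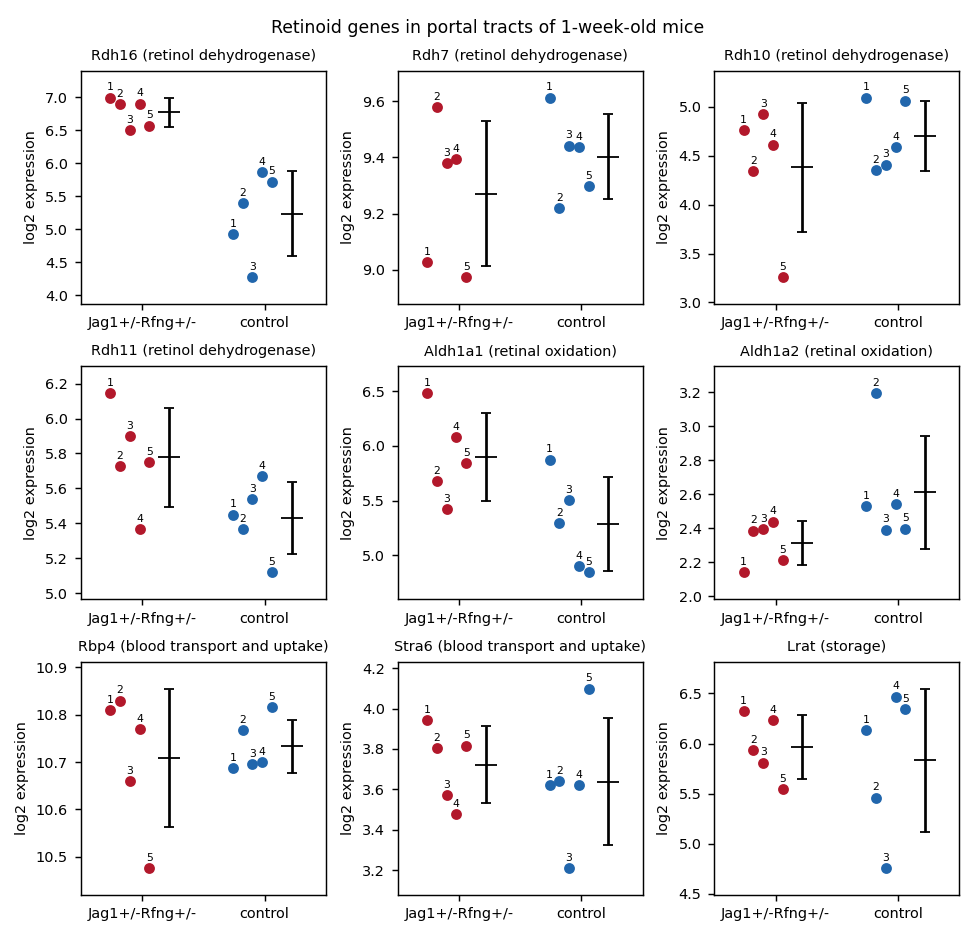
Log2 expression of the 9 retinoid genes on each array, with Jag1+/-Rfng+/- (red) left of control (blue) and replicate numbers above the points. Bars and whiskers show the mean and SD of 5 arrays on scales that differ between panels, and Rdh16 is the panel without overlap, at 6.50 to 6.99 in Jag1+/-Rfng+/- and 4.28 to 5.86 in controls.

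Of the retinal oxidation genes, Aldh1a1 read higher on average in the mutants. Aldh1a1, a cytosolic retinaldehyde dehydrogenase, read 6.48, 5.68, 5.42, 6.08 and 5.84 in Jag1+/-Rfng+/-, against 5.87, 5.29, 5.51, 4.90 and 4.84 in controls. Its difference was 0.62 ± 0.23 log2 (SE), or 1.54-fold, and control replicate 1 lay above 3 of the 5 mutant arrays. Aldh1a2, the main retinaldehyde dehydrogenase of embryonic mesoderm, read 2.14 to 2.44 in Jag1+/-Rfng+/- and 2.39 to 3.19 in controls. All 5 mutant arrays and 4 of the 5 control arrays lay within the range of absent genes, so no change in its level can be read. Of 8 mesothelial markers, a cell type known for Aldh1a2, 3 (Upk1b, Lrrn4 and Bnc1) read at the level of absent genes on all arrays, and the list mean was 2.97 in both groups.

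Genes of retinol transport and storage did not separate the groups. Rbp4, the plasma carrier of retinol made by hepatocytes, averaged 10.71 ± 0.15 in Jag1+/-Rfng+/- and 10.73 ± 0.06 in controls (log2, SD, n = 5 each). Its lowest array, at 10.48, was Jag1+/-Rfng+/- replicate 5, and all 10 arrays lay within 0.354 log2 of each other. Stra6, the membrane receptor that takes up retinol from the carrier, read 3.94, 3.80, 3.57, 3.48 and 3.82 in Jag1+/-Rfng+/-, against 3.62, 3.64, 3.21, 3.62 and 4.10 in controls. The controls spanned the whole mutant range. Lrat, which makes retinyl esters, read 6.32, 5.93, 5.81, 6.24 and 5.54 in Jag1+/-Rfng+/-, against 6.13, 5.46, 4.76, 6.47 and 6.34 in controls. The controls held both the lowest and the highest array, and the difference of 0.14 ± 0.30 log2 (SE) became -0.13 without control replicate 3. Other stellate cell markers, 15 measured, averaged 5.85 to 6.26 in Jag1+/-Rfng+/- and 6.05 to 6.17 in controls, with 8 higher and 7 lower.

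Set against all genes, 1 of the 9 genes had mutant arrays all above the controls, where 0.618% of all genes did, and 0 had them all below, where 0.766% did. In the limma fit over all genes 0 of 9 passed an adjusted p of 0.05, as did 0.00902% of all genes, and 3 had an unadjusted p under 0.05, as did 6.76% of all genes. Because Rdh16 was chosen for this contrast and the rest with it in view, these counts describe the 9 genes and support nothing further. Their median difference was 0.08 log2, against -0.01 over all genes.

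The cluster on chromosome 10 held differences of both signs. Counted from Rdh1 as place 1, Rdh16 holds place 3 and Hsd17b6 place 15 in reference order, and several places between them have no measured gene. In reference order its measured members are Rdh1, Rdh9, Rdh16, Rdh19, Rdh16f2, Rdh7, Sdr9c7 and Hsd17b6, of which Sdr9c7 was added, and Rdh16f2 named, after the values were seen. Rdh1, Rdh19 and Sdr9c7 read at or below the level of absent genes on all arrays. Hsd17b6, a hydroxysteroid dehydrogenase related to the retinol dehydrogenases, read 8.32, 8.06, 8.30, 7.21 and 6.01 in Jag1+/-Rfng+/-, against 8.69, 9.10, 9.27, 9.13 and 8.76 in controls. All mutant arrays lay below all controls, with a difference of -1.41 ± 0.38 log2 (SE) that did not pass (limma adjusted p = 0.441, and 0.110 to 0.821 over the alternatives). Replicate 5 held the lowest value, and without it the difference was -1.01. Rdh9, whose product is a retinol dehydrogenase, read 8.23, 7.95, 8.49, 8.25 and 7.23 in Jag1+/-Rfng+/-, against 7.56, 7.53, 5.86, 8.04 and 8.01 in controls, with a difference of 0.63 ± 0.38 (limma adjusted p = 0.796), which became 0.25 without control replicate 3. Rdh16f2 averaged 7.60 in Jag1+/-Rfng+/- and 7.92 in controls. The nearest measured genes on either side of the cluster, Gpr182 and Prim1, were named after their values were seen, and differed by 0.13 and -0.18 log2. Whether Rdh16, Rdh7 and Hsd17b6 differ from each other in response was not tested.

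**Figure D2:**
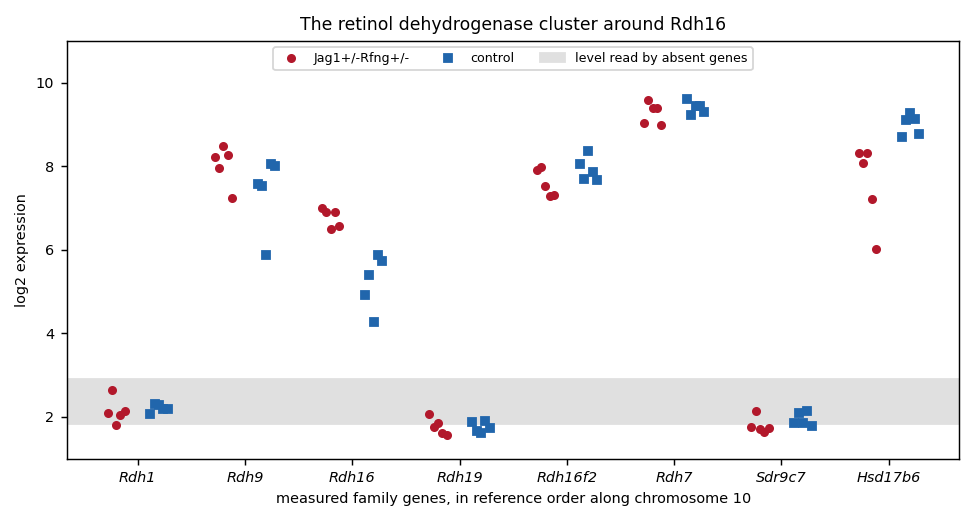
Log2 expression of the measured dehydrogenase genes of the chromosome 10 cluster in reference order, with Jag1+/-Rfng+/- (red circles) left of control (blue squares), 1 point per array. The grey band is the range read by absent genes, 1.82 to 2.91, and in the mutants Rdh16 is separated upwards and Hsd17b6 downwards, while levels of different genes are not comparable.

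Other genes of the retinoid pathway, 79 listed and 74 measured, gave 0 calls in either direction at an adjusted p of 0.05 (limma). At an unadjusted p under 0.05, 4 were higher and 2 lower, together 8.11% of the list against 6.76% of all genes. Of the 74, 40 were higher and 34 lower, with a median difference of 0.02 log2, and 18 read at or below the level of absent genes on every array. Mutant arrays all lay below the controls for 1 of them, Hsd17b6, where 0.766% of all genes did. They all lay above for Adh6a, named after its values were seen, where 0.618% of all genes did. Adh6a read at the level of absent genes throughout, and nothing is read from these counts.

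Among the other dehydrogenases the lowest p belonged to Dhrs9, which oxidises retinol and steroids. Dhrs9 read 5.58, 4.67, 5.25, 4.57 and 4.29 in Jag1+/-Rfng+/-, against 3.62, 3.71, 3.36, 4.43 and 4.14 in controls, a difference of 1.02 ± 0.26 log2 (SE, limma adjusted p = 0.394). Control replicate 4 lay above the lowest mutant array, replicate 5, so the groups overlapped. Rdh5, an 11-cis retinol dehydrogenase, differed by -0.32, Dhrs3, which reduces retinal to retinol, by -0.27, and Adh1, the cytosolic alcohol dehydrogenase, by -0.11 (limma adjusted p between 0.738 and 0.868). With the portal fibroblast covariate Rdh5 differed by -0.06, Dhrs3 by -0.07 and Dhrs9 by 0.63, and without mutant replicate 5 Dhrs3 differed by -0.11 and Adh1 by -0.05.

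The other 5 genes of the retinal oxidation list, 1 of 8 lists by role, had positive differences, and 0 of 5 passed. Over all genes 48.5% had a positive difference, and Aldh1a2, of the same role, differed by -0.30. Aox1, an aldehyde oxidase, read 4.60, 4.69, 4.68, 4.91 and 4.20 in Jag1+/-Rfng+/-, against 3.44, 4.24, 3.97, 4.30 and 3.86 in controls. The difference was 0.65 ± 0.18 log2 (SE, limma adjusted p = 0.433), and replicate 5 was the mutant array within the control range. Aox3, another aldehyde oxidase, differed by 0.46, or 0.31 without control replicate 3, and Aldh1a7, a close relative of Aldh1a1, by 0.71 (limma adjusted p = 0.742 and 0.743). Aldh1a7 differed by -0.00139 with the portal fibroblast list as a covariate, Aox1 by 0.805 and Aox3 by 0.32. Aldh1a3, a retinaldehyde dehydrogenase, differed by 0.33 (limma adjusted p = 0.698) and read at the level of absent genes on all 10 arrays. The list differed by a median of 0.46 log2.

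In transport, Stra6l, which encodes a liver receptor for the retinol carrier in mice, averaged 7.18 ± 0.44 in Jag1+/-Rfng+/- and 7.66 ± 0.21 in controls (log2, SD, n = 5 each; limma adjusted p = 0.690), and its difference of -0.48 became -0.30 without mutant replicate 1. Ttr, the partner of the carrier in plasma, averaged 12.35 in Jag1+/-Rfng+/- and 12.43 in controls. Crabp1 and Crabp2, the cytosolic retinoic acid binding proteins, differed by -0.13 and 0.06, the first at the level of absent genes. Lipe, a lipase that can release retinol from its esters, differed by 0.27 and Bco1, which cleaves carotene to retinal, by 0.38 (limma adjusted p = 0.715 and 0.743). With the portal fibroblast covariate Bco1 differed by 0.05 and Lipe by 0.30.

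**Figure D3:**
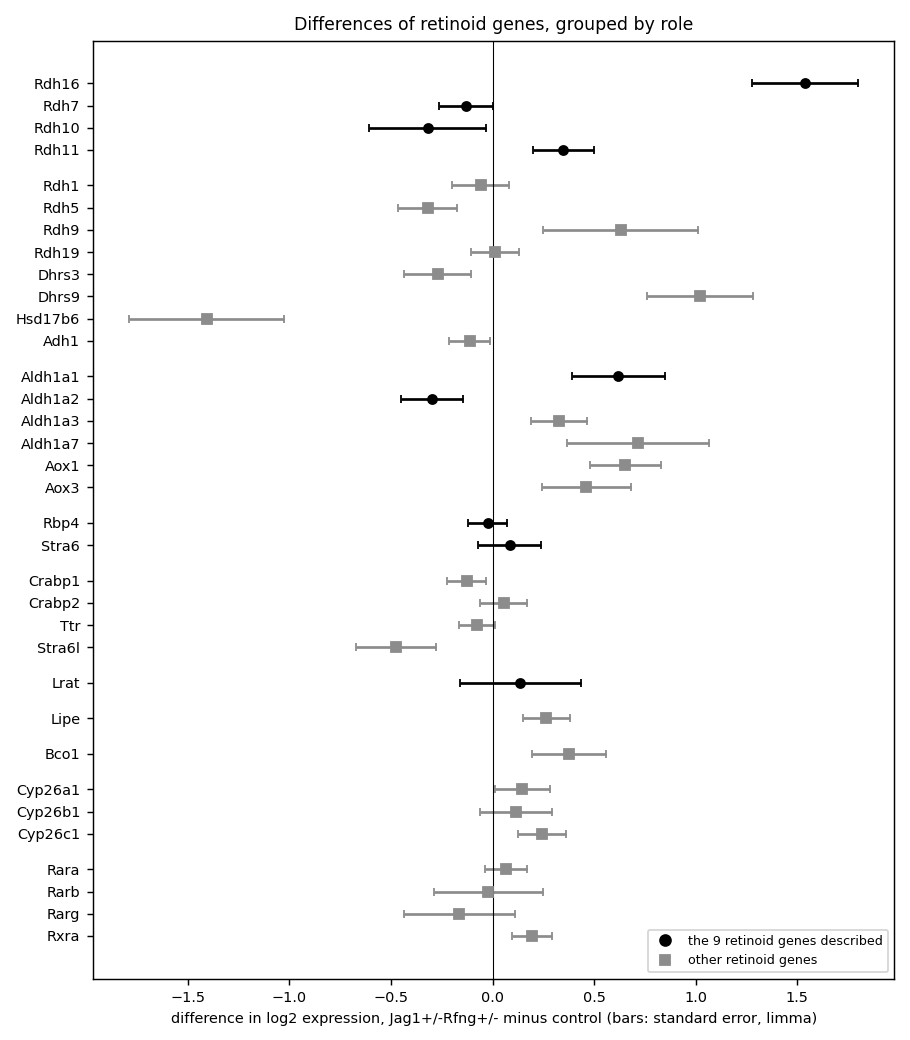
Differences in log2 expression, Jag1+/-Rfng+/- minus control, of the 9 retinoid genes (black circles) and 25 other named retinoid genes (grey squares), grouped by role, with standard errors of the limma fit. Rdh16 at 1.54 and Hsd17b6 at -1.41 lie farthest from 0, and Rbp4, Ttr and Rarb lie close to it.

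Readouts of retinoic acid gave no calls. Cyp26a1, which carries the repeat printed above, read 2.48 to 2.86 in Jag1+/-Rfng+/- and 2.19 to 2.81 in controls, within the range of absent genes on all arrays. Cyp26c1, a related retinoic acid hydroxylase gene, also read in that range throughout and differed by 0.24, and Cyp26b1 by 0.11. Rarb, which carries the other printed repeat, read 4.90, 4.89, 4.58, 4.74 and 3.99 in Jag1+/-Rfng+/-, against 4.79, 3.95, 4.09, 5.21 and 5.17 in controls. Its low arrays were replicate 5 of the mutants and replicates 2 and 3 of the controls, and the difference of -0.02 ± 0.27 log2 (SE) became 0.14 without mutant replicate 5. The receptor genes Rara, Rarg and Rxra differed by 0.07, -0.16 and 0.19 (limma adjusted p between 0.750 and 0.931), and Rarg by 0.03 without mutant replicate 5 and 0.53 with the portal fibroblast covariate. Of 15 measured retinoic acid target genes, 7 were higher and 8 lower, and 3 read at or below the level of absent genes on every array. Of the 15, 0 passed an adjusted or an unadjusted limma p of 0.05, where 6.76% of all genes passed the unadjusted one. A difference too small for 5 against 5 arrays cannot be told from none.

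Within the groups, Rdh16 and Lrat had the lowest p among pairs of the 9 genes, which did not pass adjustment. After each gene was centred on its group means, their correlation over 10 arrays was r = 0.825 (exact permutation within groups, two-sided, p = 0.0241, adjusted p = 0.727 over 36 pairs of the 9 genes) and Spearman's rho 0.721 (exact permutation p = 0.0710, adjusted p = 0.974). Without the 2 arrays farthest from the median of Rdh16, r was 0.890. In this family 1 of 36 pairs had an unadjusted p under 0.05 and 0 passed after adjustment. Among controls, replicate 3 was the lowest and replicate 4 the highest for both genes.

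The pericentral hepatocyte list, genes of hepatocytes around the central vein, was low on the same control array as Rdh16. Its 10 genes averaged 6.84, 7.34, 7.56, 7.61 and 6.46 in Jag1+/-Rfng+/-, against 7.26, 6.83, 5.85, 7.66 and 7.64 in controls. Control replicate 3 was again the lowest and replicates 4 and 5 the highest, as for Rdh16 and Lrat. The mutants did not share this order. Their lowest Rdh16, 6.50, was on replicate 3, with a list mean of 7.56. Their highest, 6.99, was on replicate 1, with a list mean of 6.84. Mutant replicate 5 was low in the list and read 6.57 for Rdh16. The relation of Rdh16 to this list was not tested. The list lay 0.11 log2 higher in the mutants, with 6 of 10 genes higher, and none of its genes read at the level of absent genes on all arrays. With the list mean as a covariate, a choice made after the data were seen, Rdh16 differed by 1.48 ± 0.20 log2 (SE), against 1.54 without the covariate. With the hepatocyte list as a covariate it differed by 1.64, with the stellate cell list by 1.53, and with the portal fibroblast list, which lay 0.76 log2 lower in the mutants, by 1.22. With the portal fibroblast covariate Rdh7 differed by 0.04 ± 0.17, Rdh10 by -0.16 ± 0.39, Stra6 by -0.15 ± 0.19 and Lrat by -0.24 ± 0.38 (log2, SE). Aldh1a1 differed by 0.72 ± 0.32 with it, against 0.62 ± 0.23 without, Aldh1a2 by -0.12 and Rbp4 by 0.05. Standard errors of the 9 genes were larger with this covariate than without it. The part of portal fibroblasts in the results was not tested.

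**Figure D4:**
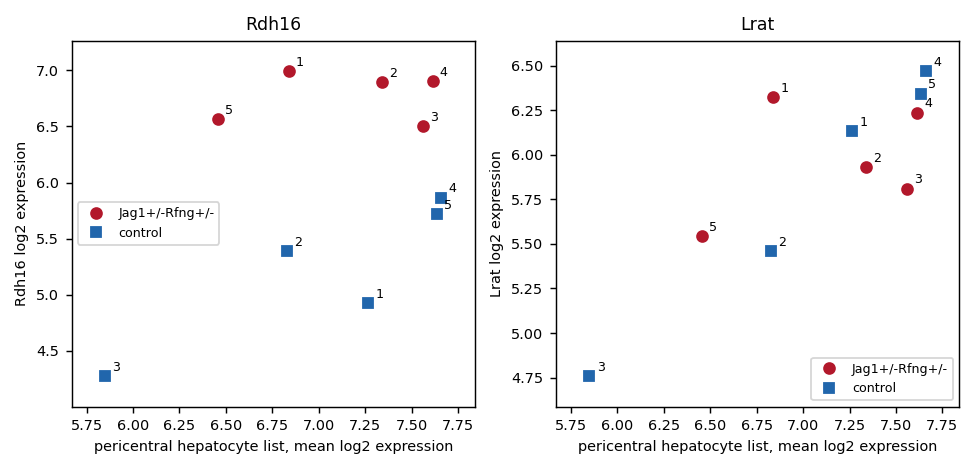
Rdh16 (left) and Lrat (right) on each array against the mean of the pericentral hepatocyte list, all in log2 expression, with Jag1+/-Rfng+/- as red circles, control as blue squares and replicate numbers beside the points. The mutant arrays lie above the controls for Rdh16 whatever the list mean, since its groups do not overlap, and within the control range for Lrat.

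Correlations of the 9 genes with 4 marker lists, again within groups over 10 arrays, gave 0 of 36 with an unadjusted p under 0.05 (exact permutation, two-sided, lowest adjusted p = 0.583). The lowest p was that of Lrat with the hepatocyte list (r = 0.758, exact permutation p = 0.0576, adjusted p = 0.583, and Spearman's rho 0.733, exact permutation p = 0.0609, adjusted p = 0.686), and r was 0.728 without the 2 arrays farthest from the list's median. Lrat and the stellate cell list had r = 0.139 (exact permutation p = 0.595, adjusted p = 0.824, and rho 0.00606). Rbp4 and the stellate cell list had r = 0.789 (exact permutation p = 0.0779, adjusted p = 0.583, and rho 0.370). This r was 0.0948 without the 2 farthest arrays and 0.0947 without mutant replicate 5 alone, and so rests on that array.

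Among 9957 genes ranked, those most like Rdh16 within the groups were Ccdc149, Zfand1, Rragc, Fmo5 and Faf1, with r between 0.914 and 0.977 over 10 arrays, chosen for that value and so untested. Fmo5 encodes a flavin monooxygenase of liver and Rragc a GTPase that signals amino acids to mTORC1. Without mutant replicate 5 their r lay between 0.923 and 0.978. Between the groups these genes differed by -0.28 to 0.46 log2, against 1.54 for Rdh16. Those most like Lrat were Rtn4ip1, Cnih1, Slc25a16, Gpat4 and Tmem69, with r between 0.917 and 0.935, and they differed between the groups by -0.36 to -0.01 log2.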

How the data were processed

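The authors deposited log2 values of 33649 probe sets on 10 arrays, from 1.08 to 12.47. The submitters' processing notes name RMA and Partek 6.6 without saying what each did. Such summaries can understate folds of dim genes. The array's genome build and detection calls were not stated. The table held 0 columns of no sample. A single gene symbol was annotated for 23521 of them, several for 1814 and no symbol for 8314, and 23328 of the first matched RefSeq GRCm38.p6 by Entrez identifier. The brightest set of each gene over the 10 arrays was used, giving 22180 genes. All 9 retinoid genes have 1 such probe set.

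Groups came from the sample titles. limma 3.58.1 (R 4.3.3, lmFit and eBayes, no covariate, no filter, tested on simulated data) was fitted over all genes with Benjamini-Hochberg adjustment and a threshold of 0.05. Exact permutations within groups used numpy 2.4.6. The replicate numbers did not pair the arrays. The genes and lists were chosen with earlier results of these data known. Named genes are the 9, the 12 other retinoid genes with the lowest p, others listed by name, Jag1, Rfng, and the 5 most like Rdh16 or Lrat, leaving out predicted, small RNA, chemoreceptor, immune receptor and sex-linked genes and those below the median level. Alternatives were each array left out, a replicate block, the arrays sharing a name number, other normalizations, filters, probe set means, eBayes settings, array weights, and sex or marker list covariates. The pericentral covariate and the set without mutant replicate 5 among arrays sharing a name number were added after seeing the data.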

Additional observations from a re-analysis of the deposited data

Results flagged for a closer look

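Of 68 groups of 5 arrays tested over 34 named genes, 4 held an array far from the other 4, where chance gives about 1 in 20. Aldh1a2 read 3.19 on control replicate 2, against 2.39 to 2.54 on the other controls. Cyp26c1 read 2.58 on the same array, against 2.11 to 2.21. Rdh9 read 5.86 on control replicate 3, against 7.53 to 8.04. Dhrs3 read 7.47 on Jag1+/-Rfng+/- replicate 5, the array that stood apart, against 8.13 to 8.34. Without that array Dhrs3 differed by -0.11 log2 in place of -0.27.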

How the results depend on the processing

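The Rdh16 difference stayed between 1.22 and 1.69 log2 over 24 alternatives, and between 1.30 and 1.69 when single arrays were left out. Over 190 recomputed differences of the other 8 retinoid genes, 11 changed sign, and Rdh11, Aldh1a1 and Aldh1a2 kept theirs throughout. The sign of Aldh1a2 cannot be read as a change, since all 5 mutant and 4 of the 5 control arrays lay within the range of absent genes. Its difference of -0.30 became -0.15 without control replicate 2. Rdh7 was the gene that moved by more than its SD, to 0.08 in the arrays sharing a name number without mutant replicate 5. Over 592 recomputed values of 25 other retinoid genes 0 passed, and 17 genes kept their sign. The count of all genes past the threshold was 2, and 2 to 6 with single arrays left out (6 without Jag1+/-Rfng+/- replicate 2, 5 without control replicate 4, 4 without control replicate 5). It was 5 with array weights or the stellate cell covariate, 10 with the hepatocyte and 12 with the pericentral covariate, 11 with trend and robust eBayes or above the median level, and 1 with the portal fibroblast covariate. In the arrays sharing a name number without mutant replicate 5 limma called 0, with 1215 at an unadjusted p under 0.05. The cause of these moves was not tested. Other retinoid genes and marker list relations gave 0 calls under every alternative run. With a replicate block the count was 2, and the Rdh16 difference was 1.54. Same-numbered arrays deviated with correlations of -0.234 to 0.061, and 0 of 5 controls correlated best with their own number. The means of Aldh1a2 and Stra6 lay below the median level of all genes, so they have no value in the alternative limited to genes above it.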
